A study of Mus musculus with 3 samples.

Results

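Transforming growth factor beta (TGF-beta) and platelet-derived growth factor (PDGF) signalling was followed in mouse glomerular cells through 10 genes: the ligand genes Tgfb1, Tgfb2, Pdgfa and Pdgfb, the receptor genes Tgfbr1, Tgfbr2, Tgfbr3, Pdgfra and Pdgfrb, and Smad7, which encodes an inhibitor of TGF-beta signalling. They were taken by gene symbol, and all 10 were present among the 32285 genes of the files. Glomeruli were isolated from the kidneys of 3 groups of mice and dissociated, and the RNA of single cells was counted in droplets, in 1 library for each group. MRL/lpr mice, a strain with the lpr mutation of Fas that develops lupus nephritis, were bought as females at 6 to 8 weeks of age and counted as diseased at about 16 weeks. The treated group were MRL/lpr mice given 800000 mesenchymal stem cells from human umbilical cord (hUC-MSCs) through the tail vein and compared at 21 days with MRL/lpr mice that received none. The labels call the control a blank control and name neither its strain nor its age. The number of mice pooled per library was not given in the sources used here, and disease, strain, animal and preparation cannot be told apart between libraries.

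TGF-beta ligands are made in a latent form, are activated outside the cell, and signal through a complex of the type 2 receptor Tgfbr2 and the type 1 receptor Tgfbr1 to SMAD transcription factors. Tgfbr3 (betaglycan) is a co-receptor that presents ligand, and Smad7 is induced by the pathway and blocks the type 1 receptor. PDGF ligands are dimers of A and B chains. Pdgfrb binds the B chain, Pdgfra binds both, and in the glomerulus endothelial Pdgfb is known to recruit mesangial cells that carry Pdgfrb. Both pathways are known for driving matrix deposition in scarring kidneys.

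After filtering there were 10047 cells in the control library, 12516 in the MRL/lpr library and 14385 in the treated library, with medians of 4903, 3623 and 2704 unique molecular identifiers (UMIs, counted molecules) per cell. Cells were grouped into classes by markers, with the 10 genes and their pathway lists left out of the clustering. Levels are given as CPM, the UMIs of a gene divided by all UMIs of a class in a library and scaled to 1000000 UMIs, with an exact Poisson 95% interval that covers counting error only. The 4 classes that carry most of the results held, in the order control, MRL/lpr and treated, 4787, 4135 and 4843 endothelial-like cells, 1012, 1838 and 2281 mesangial and mural-like cells, 2347, 814 and 151 podocyte-like cells and 108, 2151 and 3698 macrophage and monocyte-like cells. The labelled tissue is glomerular, and podocyte-like cells made up 2347 of 10047, 814 of 12516 and 151 of 14385 cells. Classes were named from marker lists, so the marker sums of a class within itself (23050.1, 24129 and 23950.0 CPM for 8 podocyte markers) describe the naming only. Tubule and blood cells were also present, and the control macrophage class carried 14345 CPM of haemoglobin and other erythroid markers against 1652 and 743 CPM in the other libraries. Pairs of libraries shared 35 to 61 cell barcodes, where 22.9 to 34.4 were expected by chance. Empty droplets (barcodes with 1 to 100 UMIs) gave the free RNA of each library, and free RNA was estimated at 2.42% to 17% of the UMIs in these 4 classes and at up to 50.5% in proximal tubule-like cells. UMIs were counted from the 3' end, 1 per molecule, so levels of different genes are not scaled by length.

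Tgfb1 was the most abundant ligand, with 25413 UMIs over all classes, and macrophage and monocyte-like cells had its highest level in each library. In that class it was at 304 CPM (256 to 358) in the control library, 275 CPM (265 to 285) in the MRL/lpr library and 235 CPM (227 to 243) in the treated library. With a higher cell threshold, set by order of magnitude in each library at 4201, 2681 and 2584 UMIs in place of 1000, the control library kept fewer than 50 macrophage and monocyte-like cells, so the class had no value there and Tgfb1 was ranked without it. Endothelial-like cells ranked second in the control library at 197 CPM, and mesangial and mural-like cells ranked second in the other 2 libraries at 187 and 154 CPM. The podocyte-like class was low at 4.54, 16.2 and 22.7 CPM, where free RNA alone would give about 1.91, 6.85 and 9.41 CPM. Tgfb1 spanned immune, endothelial and mesangial cells, with podocytes at the bottom of the 4 classes. Its empty-droplet level was 78.8, 109 and 132 CPM, level with the endothelial value in the treated library, where free RNA was estimated at 8.03% of the UMIs of the class.

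Tgfb2, the second TGF-beta ligand gene, was sparse, with 1607 UMIs in all. It was found in endothelial-like cells at 12.8 CPM (11.5 to 14.3) in the control library, 13.5 CPM (11.9 to 15.2) in the MRL/lpr library and 18.7 CPM (16.9 to 20.7) in the treated library. Mesangial and mural-like cells were at 15.9 CPM (13.8 to 18.2) in the control library, 8.1 CPM (6.51 to 9.97) in the MRL/lpr library and 10.6 CPM (8.95 to 12.5) in the treated library. The intervals of the 2 classes overlapped in the control library and not in the other 2, where the endothelial class was higher. In the control library the highest Tgfb2 level was in mesangial and mural-like cells, but in endothelial-like cells with 200 to 3000 genes per cell and in macrophage and monocyte-like cells with no doublets removed. Macrophage and monocyte-like cells held 1, 3 and 17 Tgfb2 UMIs, where Tgfb1 had its highest level.

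The stretches upstream of these 2 genes are shown because these members of one ligand family differ widely in level, and their base composition differs too. Of the 10 members, 6 had an entry in the RefSeq promoter table (GRCm38.p6), and Pdgfb, Tgfbr3, Pdgfrb and Smad7 are named only. Each line gives the 250 bases before the start site, 5′ to 3′ on the gene's strand, with capitals at every match to a GC box (GGGCGG or its reverse complement CCGCCC), a SMAD box (CAGAC or GTCTG) or a TATA box (TATAAA or TTTATA). Tgfb1 lies at chr7:25687002-25705077, plus strand, and its stretch is chr7:25686752-25687001. Tgfb2 lies at chr1:186622792-186705989, minus strand, and its stretch is chr1:186705990-186706239.
Tgfb1: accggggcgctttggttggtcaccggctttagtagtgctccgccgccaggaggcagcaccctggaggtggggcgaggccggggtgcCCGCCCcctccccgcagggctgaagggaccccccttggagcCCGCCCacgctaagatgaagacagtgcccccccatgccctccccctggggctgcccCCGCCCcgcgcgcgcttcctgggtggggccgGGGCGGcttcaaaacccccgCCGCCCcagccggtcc
Tgfb2: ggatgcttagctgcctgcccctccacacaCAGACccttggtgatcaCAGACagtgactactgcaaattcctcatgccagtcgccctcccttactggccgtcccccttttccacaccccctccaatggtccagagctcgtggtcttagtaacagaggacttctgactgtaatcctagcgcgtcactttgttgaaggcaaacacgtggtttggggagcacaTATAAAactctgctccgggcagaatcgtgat
The Tgfb1 stretch was 75.2% G and C and held 5 GC boxes, 4 of them on the reverse strand, beginning 164, 123, 67, 36 and 16 bases before the start, and no SMAD or TATA box. The Tgfb2 stretch was 53.6% G and C and held 2 SMAD boxes, beginning 221 and 204 bases before the start, and 1 TATA box at 31 bases, with no GC box. Over all 32851 promoter stretches of the same length in the table, 32.7% held a GC box, 42.2% a SMAD box and 12.4% a TATA box, so each match is common and describes letters only. The 2 Pdgfa stretches (66.4% and 72.4% G and C) held 1 and 2 GC boxes, the 2 Tgfbr1 stretches held 2 GC boxes and 1 SMAD box, and Tgfbr2 and Pdgfra held 1 SMAD box each.

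Pdgfa (chr5:138976014-138997370, minus strand), the A chain, had its highest level in mesangial and mural-like cells. It was at 182 CPM (175 to 189.6) in the control library, 194 CPM (186 to 202) in the MRL/lpr library and 165 CPM (158 to 172) in the treated library there, against 35, 41.3 and 43.5 CPM in endothelial-like cells. The intervals of these 2 classes did not overlap in any library. Distal nephron-like cells stood at 31.5, 54.7 and 51.2 CPM. Podocyte-like and macrophage and monocyte-like cells were low in the control library, at 1.53 and 4.31 CPM, and higher in the treated library, at 35.7 and 23.2 CPM.

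Pdgfb (chr15:79995874-80014977, minus strand), the B chain, had its highest level in endothelial-like cells, at 128 CPM (123 to 132) in the control library, 169 CPM (163 to 174) in the MRL/lpr library and 162 CPM (157 to 168) in the treated library. Mesangial and mural-like cells followed in the control library at 99 CPM, and macrophage and monocyte-like cells followed in the MRL/lpr and treated libraries at 73.4 and 83.4 CPM. Endothelial markers summed to 845, 1709 and 1384 CPM in the mesangial and mural-like class, against 9163, 8509 and 9429 CPM in the endothelial-like class itself, and Pdgfb in the mesangial class was 99, 62.6 and 66.1 CPM. In the control library the mesangial class thus held Pdgfb at 99 CPM where the endothelial class had 128, while its endothelial markers were at 845 CPM against 9163. The part of endothelial RNA in the Pdgfb level of mesangial cells was not tested.

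**Figure D1:**
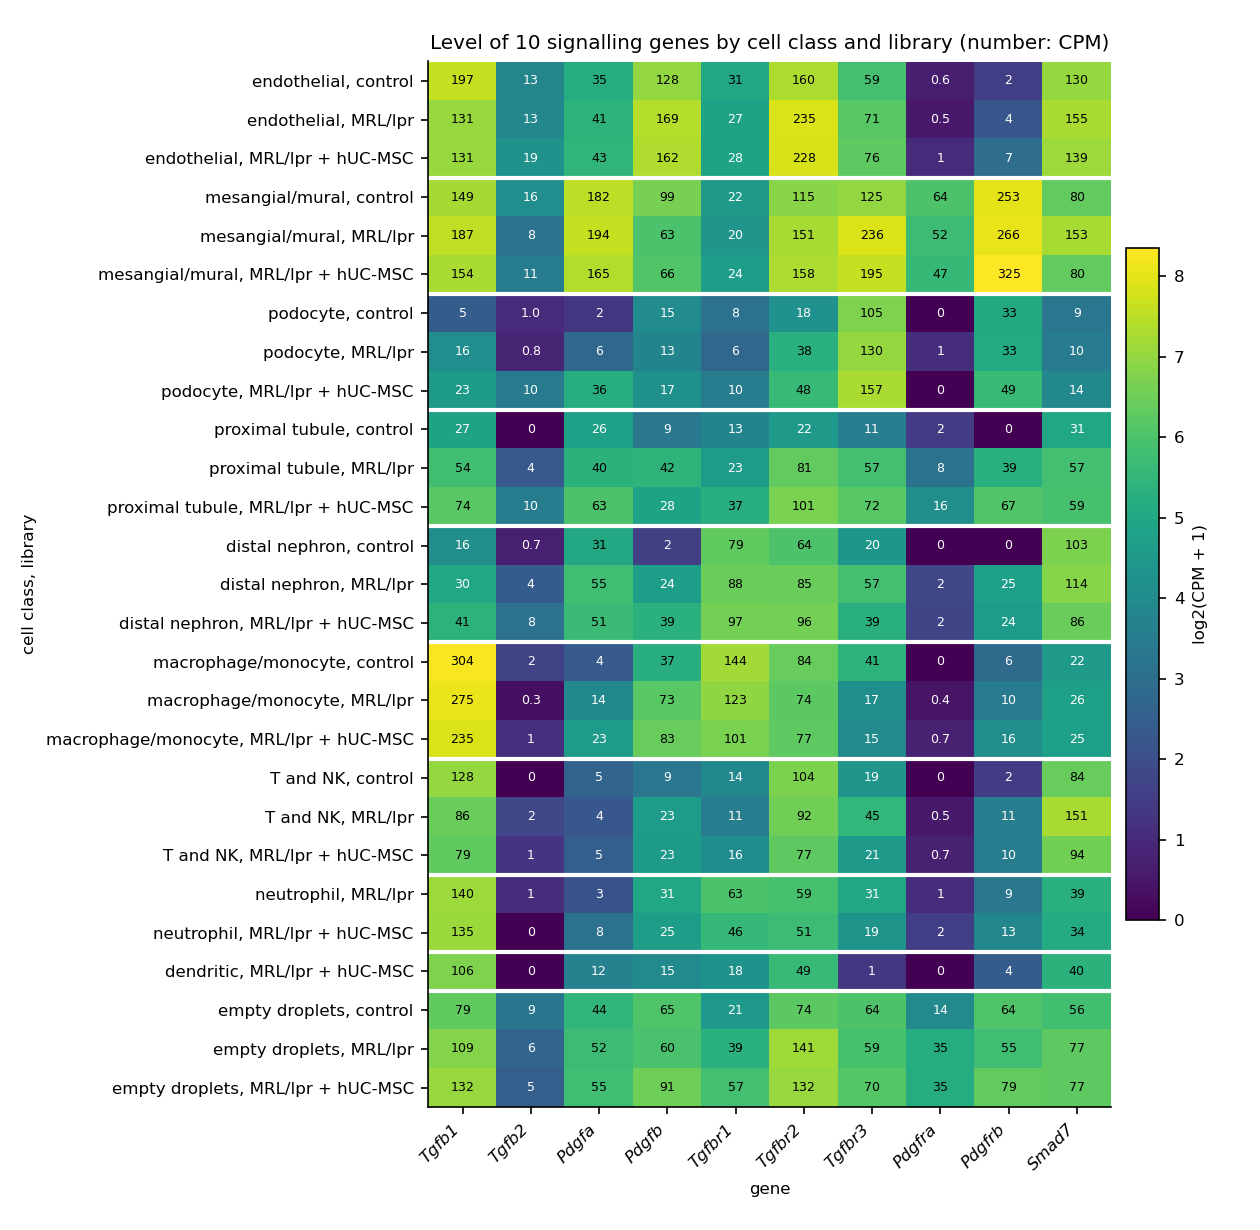
Level of each of the 10 genes (columns) in each cell class of at least 50 cells and in empty droplets, by library (rows). Colour is log2(CPM + 1) and the number in a cell is CPM from summed UMIs of 1 library. Pdgfra and Pdgfrb are bright in the mesangial and mural rows, Tgfb1 and Tgfbr1 are highest in the macrophage and monocyte rows, and Pdgfb and Tgfbr2 are highest in the endothelial rows.

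Tgfbr1 (chr4:47353222-47414931, plus strand), the signalling type 1 receptor, was highest in macrophage and monocyte-like cells, at 144 CPM (112 to 183) in the control library, 123 CPM (116 to 129) in the MRL/lpr library and 101 CPM (96 to 107) in the treated library. Distal nephron-like cells came next at 78.7, 88.3 and 96.8 CPM, and their interval overlapped that of macrophages in the treated library. They ranked first in the treated library with free RNA subtracted. Endothelial-like cells were at 31.1, 27.1 and 27.9 CPM and mesangial and mural-like cells at 22, 19.6 and 24.3 CPM, where empty droplets were at 20.8, 39.2 and 57.3 CPM. The intervals of both resident classes lay below that of the macrophages in each library.

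Tgfbr2 (chr9:116084293-116175360, minus strand), the ligand-binding type 2 receptor, was ordered otherwise, with endothelial-like cells first. Endothelial-like cells were at 160.1 CPM (155 to 165) in the control library, 235 CPM (228 to 241) in the MRL/lpr library and 228 CPM (221 to 235) in the treated library. Mesangial and mural-like cells followed at 115, 151 and 158 CPM, macrophage and monocyte-like cells were at 84.1, 74.5 and 76.5 CPM, and podocyte-like cells were lowest of the 4 classes at 17.8, 38 and 47.9 CPM. The macrophage value did not exceed the empty-droplet level (74, 141 and 132 CPM) outside the control library, while free RNA was estimated to supply 3.53, 13.6 and 11 CPM of it.

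Tgfbr3 (chr5:107106570-107289629, minus strand), the co-receptor, was the one TGF-beta receptor gene at a high level in podocyte-like cells, at 105 CPM (100.2 to 110.2) in the control library, 130.1 CPM (121 to 139) in the MRL/lpr library and 157 CPM (135 to 182) in the treated library. Mesangial and mural-like cells were above them in each library, at 125 CPM (119 to 131) in the control library, 236 CPM (227 to 245) in the MRL/lpr library and 195 CPM (187 to 202) in the treated library, but with cells limited to 200 to 3000 genes the podocyte-like class was the higher one in the control and treated libraries. Endothelial-like cells were at 58.6, 71 and 76.2 CPM. Podocyte-like cells held Tgfbr3 at 105 CPM in the control library where Tgfbr1 was at 7.67 CPM and Tgfbr2 at 17.8 CPM. The share of podocyte-like cells with at least 1 Tgfbr3 UMI was 48%, 56.3% and 65.6% at median depths of 6668, 7196 and 6874 UMIs. With each cell thinned to 1000 UMIs it was 10.4%, 10.7% and 21.2% (exact binomial 95% interval of the last 15% to 28.6%), and erythroid cells, which should lack the gene, were at 0.521%, 0.312% and 0.559%.

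Pdgfra (chr5:75152292-75198215, plus strand), which binds both chains, was found mainly in mesangial and mural-like cells, which held 97.8%, 87.8% and 89.9% of its UMIs in the 3 libraries. Its level there was 63.5 CPM (59.3 to 68) in the control library, 51.9 CPM (47.7 to 56.3) in the MRL/lpr library and 47.2 CPM (43.6 to 51) in the treated library. In podocyte-like cells it had 0 of 16299651 UMIs in the control library, with an upper limit of 0.226 CPM. There were 7 UMIs in the MRL/lpr library and 0 of 1147263 in the treated library, with an upper limit of 3.22 CPM for the latter. Endothelial-like cells were at 0.609, 0.498 and 1.00 CPM. Proximal tubule-like cells were at 1.82, 7.68 and 16.5 CPM, below the empty-droplet level of 14.1, 35.1 and 35.2 CPM.

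Pdgfrb (chr18:61045150-61085061, plus strand), which binds the B chain and marks mesangial and mural cells, was the most abundant of the 5 receptor genes in mesangial and mural-like cells, at 253 CPM (245 to 262) in the control library, 266 CPM (256 to 276) in the MRL/lpr library and 325 CPM (315 to 334) in the treated library. That class held 84.7%, 80.1% and 85.7% of its UMIs. Podocyte-like cells also held it, at 32.7 CPM (30.0 to 35.6) in the control library, 33 CPM (28.6 to 37.9) in the MRL/lpr library and 48.8 CPM (36.9 to 63.4) in the treated library. Free RNA was estimated to give 1.56, 3.44 and 5.65 CPM of that, and the summed level of 18 mesangial and mural markers in the podocyte-like class was 68.1, 130.3 and 288 CPM against 10466, 10906 and 11008 CPM in the mesangial class. In the control library 533 Pdgfrb UMIs lay in 449 of 2347 podocyte-like cells, and the 3 podocyte clusters held it at 31.3, 28.3 and 53.5 CPM, so the signal was not in 1 cluster. Endothelial-like cells, with 1.94, 3.69 and 6.86 CPM, were lower than podocytes in each library. The Pdgfrb level of podocyte-like cells did not exceed the empty-droplet level in any library. After thinning to 1000 UMIs, 21.3%, 23.1% and 26.2% of mesangial and mural-like cells had a Pdgfrb UMI, against 0.251%, 0.411% and 0.97% of endothelial-like cells (unthinned, 77.1%, 60.7% and 62.4% against 0.982%, 1.77% and 2.77%). The median depths were 7491, 3746 and 3315 UMIs in mesangial and mural-like cells and 4502, 3788 and 3083 in endothelial-like cells.

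Smad7 (chr18:75367529-75395935, plus strand), the inhibitor, was highest in endothelial-like cells in each library, at 129.9 CPM (126 to 134) in the control library, 155 CPM (149 to 160.1) in the MRL/lpr library and 139 CPM (134 to 144) in the treated library. Mesangial and mural-like cells were at 80.3 CPM (75.5 to 85.2) in the control library, 153 CPM (145 to 160.0) in the MRL/lpr library and 80.4 CPM (75.7 to 85.4) in the treated library, and T and NK cell-like cells at 84.3 CPM (62.1 to 112) in the control library, 151 CPM (135 to 168) in the MRL/lpr library and 94 CPM (78.9 to 111) in the treated library. In the MRL/lpr library the intervals of these 3 classes overlapped, and in the control and treated libraries the endothelial class stood above the other two. Mesangial and mural-like cells ranked first in the MRL/lpr library with no doublets removed, and T and NK cell-like cells with free RNA subtracted. Macrophage and monocyte-like cells were at 21.6, 26 and 25.5 CPM and podocyte-like cells at 8.65, 9.74 and 13.9 CPM, both below the empty-droplet level of 55.6, 77 and 76.5 CPM.

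The number of cells of a class and its level together set where a member's molecules were found. In the control library endothelial-like cells held 64.3% of all Tgfb1 UMIs and macrophage and monocyte-like cells 1.76%. In the MRL/lpr library the shares were 30.8% and 34.6%, and in the treated library 29.7% and 37.1%. The macrophage level of Tgfb1 was 304, 275 and 235 CPM while the number of macrophage and monocyte-like cells was 108, 2151 and 3698. Tgfbr1 showed the same shift, with a macrophage share of 4.39%, 51.1% and 51.7%. The podocyte share of Tgfbr3 went from 33% in the control library to 14% and 3.65%, with 2347, 814 and 151 podocyte-like cells. Cell recovery from the dissociation and the number of cells in the kidney cannot be told apart here.

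**Figure D2:**
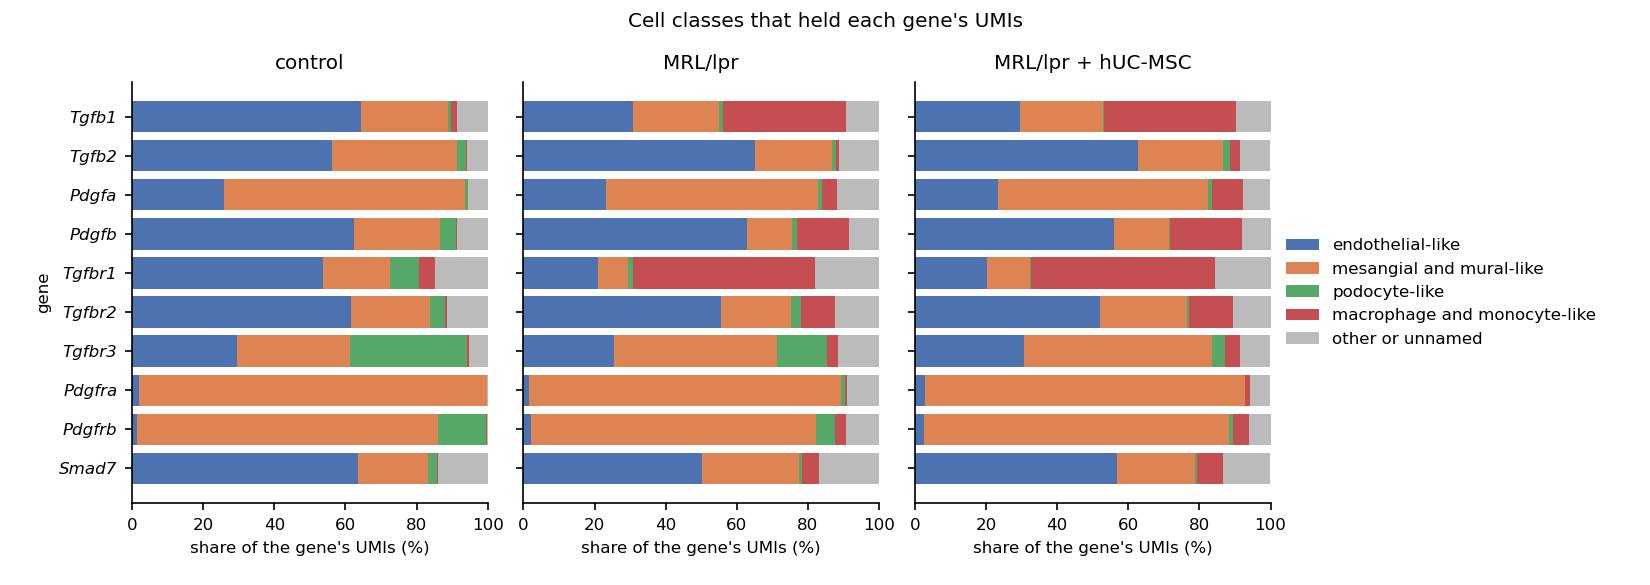
Share of each gene's UMIs (x axis, percent) held by 4 cell classes and by all other or unnamed cells, in each library. In the control library endothelial-like cells held 64.3% of Tgfb1 UMIs, and in the MRL/lpr library macrophage and monocyte-like cells held 34.6% of Tgfb1 and 51.1% of Tgfbr1 UMIs.

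The first comparison set the MRL/lpr library against the control library within a class. With 1 library per group there is no test. A ratio carries an exact 95% interval for counting error only, a gene was compared where both libraries together held at least 20 UMIs, and a member was counted where it differed by at least 2-fold. In endothelial-like cells all 10 members could be compared, and 0 were at least 2-fold higher, where 10.9% of 14805 genes were, and 0 lower, where 5.70% were. In mesangial and mural-like cells the counts were 0 higher and 0 lower of 10, where 12.9% and 5.39% of 13829 genes were. In podocyte-like cells 9 members were compared, with 3 higher and 0 lower, where 8.97% and 6.62% of 12335 genes were. In macrophage and monocyte-like cells 8 were compared, with 2 higher and 1 lower, where 13.1% and 15.0% of 11899 genes were. The median log2 ratio of all genes compared was 0.05, 0.03, -0.08 and -0.10 in the same order of classes. Different clusters held most of a class in these libraries. Control endothelial-like cells lay mostly in clusters led by Cyp26b1 (3466 cells) and Ifit1 (1019 cells), MRL/lpr endothelial-like cells mostly in a cluster led by Calca (2532 cells), control mesangial and mural-like cells mostly in a cluster led by Sfrp2 (557 of 1012) and MRL/lpr ones mostly in a cluster led by Ren1 and Tagln (1088 of 1838).

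In endothelial-like cells the ligands differed in direction. Tgfb1 was lower, at 131 CPM in the MRL/lpr library against 197 CPM in the control library, a log2 ratio of -0.58 (95% interval -0.65 to -0.51). Pdgfb was higher, at 169 against 128 CPM and 0.40 (95% interval 0.33 to 0.47). Tgfbr2 was higher as well, at 0.55 (95% interval 0.49 to 0.61). Of the other members, Tgfbr3 was at 0.28, Smad7 at 0.25, Tgfbr1 at -0.20 and Tgfb2 at 0.07. Within 4 endothelial clusters that held at least 50 cells of both libraries, Tgfbr2 was higher in each, at 0.45 (0.18 to 0.72), 0.72 (0.27 to 1.20), 0.57 (0.27 to 0.88) and 0.60 (0.18 to 1.04). Tgfb1 within the same clusters was at -0.59 (-0.95 to -0.26), -0.13 (-0.60 to 0.38), -0.17 (-0.49 to 0.16) and -0.34 (-0.74 to 0.08), so the interval lay below 0 only in the first, the cluster led by Cyp26b1. Pdgfb was at 0.26 (-0.08 to 0.58), 0.47 (-0.03 to 1.00), 0.79 (0.41 to 1.19) and 0.49 (0.02 to 0.99) in them, with intervals above 0 in the last 2. Tgfb2 could be compared in the first 3 and was at -0.64 (-2.53 to 0.74), -1.48 (-2.82 to 0.12) and -1.28 (-1.90 to -0.59), lower in the third, the cluster led by Calca, although the class level was 13.5 against 12.8 CPM. Pdgfrb in this class went from 1.94 to 3.69 CPM while mesangial and mural markers in it summed to 345 and 726 CPM, and their part in that ratio was not tested.

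In mesangial and mural-like cells Smad7, Tgfbr3, Tgfbr2 and Tgfb1 were higher in the MRL/lpr library and Tgfb2, Pdgfb and Pdgfra lower, all by less than 2-fold over the whole class. Smad7 was at 153 CPM in the MRL/lpr library against 80.3 CPM in the control library, a log2 ratio of 0.93 (95% interval 0.81 to 1.04). Tgfbr3 was at 236 against 125 CPM, a log2 ratio of 0.91 (95% interval 0.82 to 1.00). Tgfb1 was at 187 against 149 CPM, a log2 ratio of 0.33 (95% interval 0.24 to 0.42). Tgfb2 went the other way, from 15.9 to 8.1 CPM and -0.97 (95% interval -1.35 to -0.61), on 209 and 89 UMIs. Pdgfb was lower too, at -0.66 (95% interval -0.80 to -0.53). Tgfbr2 was higher, at 151 against 115 CPM and 0.39 (95% interval 0.29 to 0.49), and Pdgfra lower, at -0.29 (95% interval -0.45 to -0.14). Pdgfrb and Pdgfa were at 0.07 and 0.09. Smad7 and Tgfbr3 were higher in both clusters with at least 50 cells of each library: in the cluster led by Ren1 and Tagln the log2 ratios were 1.34 (1.02 to 1.67) and 0.97 (0.71 to 1.24), and in the cluster led by Sfrp2 they were 1.23 (1.05 to 1.41) and 1.18 (1.03 to 1.32). Tgfbr2 was at 0.18 (-0.09 to 0.45) in the first and 1.16 (1.01 to 1.31) in the second, and Pdgfra was lower in both, at -0.42 (-0.78 to -0.05) and -0.49 (-0.84 to -0.16). Tgfb1 was at 0.32 (0.09 to 0.54) and 0.08 (-0.11 to 0.26) in these clusters, and Tgfb2 at -0.44 (-1.31 to 0.45) and -0.99 (-1.86 to -0.23). Pdgfb differed between these clusters, at -0.99 (-1.30 to -0.68) in the first and -0.02 (-0.25 to 0.21) in the second. Pdgfrb was also lower in both, at -0.22 (-0.38 to -0.06) and -0.25 (-0.41 to -0.10), although the ratio of the whole class was 0.07. Endothelial markers, whose cells hold Smad7 at 155 CPM, summed to 845 CPM in the control and 1709 CPM in the MRL/lpr mesangial and mural-like class, and macrophage markers to 14.6 and 277 CPM. Their part in these ratios was not tested.

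In podocyte-like cells 3 members were at least 2-fold higher in the MRL/lpr library. Tgfb1 went from 4.54 to 16.2 CPM (74 and 98 UMIs), a log2 ratio of 1.83 (95% interval 1.38 to 2.29). Pdgfa went from 1.53 to 5.94 CPM (25 and 36 UMIs), a log2 ratio of 1.95 (95% interval 1.18 to 2.75). Tgfbr2 went from 17.8 to 38 CPM and 1.09 (95% interval 0.84 to 1.35). In the MRL/lpr library all 3 were lower in podocyte-like cells than in endothelial-like, mesangial and mural-like and macrophage and monocyte-like cells, and markers of these 3 classes were higher as well: summed endothelial, mesangial and mural, and macrophage markers in the podocyte-like class were 67.3, 68.1 and 5.03 CPM in the control library and 160.5, 130.3 and 82.7 CPM in the MRL/lpr library. Of the 9 macrophage markers, 8 were above 0 in the control library and 9 in the MRL/lpr library. The part of these markers' cells in the ratios was not tested. Free RNA was estimated at 2.42% of the UMIs of the class in the control and 6.27% in the MRL/lpr library. Its part was not tested either. The make-up of the class differed too: 1636 of 2347 control cells lay in the cluster led by Nphs1, and 524 and 255 of 814 MRL/lpr cells in the clusters led by Clic3 and Cdkn1c and by Sema3g and Tdrd5. In these last 2 clusters Tgfb1 was at 1.86 (1.03 to 2.78) and 2.09 (0.73 to 3.80), and Tgfbr2 was below 2-fold, at 0.97 (0.47 to 1.48) and 0.61 (0.10 to 1.14). Pdgfa was at 1.32 (-0.09 to 2.95) and 1.37 (-0.25 to 3.40) there, with intervals that held 0. Tgfbr3 and Pdgfrb were at 0.31 (95% interval 0.18 to 0.43) and 0.01 (95% interval -0.23 to 0.25) over the whole class. In the same 2 clusters Tgfbr3 was at 0.39 (0.17 to 0.62) and 0.01 (-0.23 to 0.26), and Pdgfrb at 0.05 (-0.38 to 0.48) and -0.48 (-0.93 to -0.03).

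In macrophage and monocyte-like cells the log2 ratios over the whole class were -0.15 (95% interval -0.39 to 0.11) for Tgfb1 and -0.24 (95% interval -0.59 to 0.14) for Tgfbr1. Within the cluster led by Clec4e and Cd300ld, which held 65 of the 108 control cells, Tgfbr1 was lower in the MRL/lpr library, at -0.81 (-1.28 to -0.30), as was Tgfbr2, at -0.96 (-1.57 to -0.31), and Tgfb1 was at -0.31 (-0.67 to 0.08). Pdgfb was higher, at 73.4 against 36.6 CPM (790 and 17 UMIs) and 1.00 (95% interval 0.31 to 1.79). Pdgfa was at 13.8 against 4.31 CPM, on only 2 UMIs in the control library, and its interval, -0.20 to 4.74 around 1.68, held 0. The clusters led by C1qc and by Lgals3 had 1 and 1 control cells against 495 and 126 MRL/lpr cells. Pdgfa was at 30.2 and 27.5 CPM in them in the MRL/lpr library. The part of this make-up in the ratios of the whole class was not tested. Tgfbr3 was lower, at 16.7 against 40.9 CPM (19 control UMIs) and -1.29 (95% interval -1.98 to -0.53). Tgfbr3 turned to 0.80 (-1.08 to 3.87) when cells were limited to 200 to 3000 genes. Endothelial markers summed to 894 CPM in the control class against 441 CPM in the MRL/lpr class. In the cluster led by Clec4e and Cd300ld alone the log2 ratio of Pdgfb was 1.72 (0.66 to 3.05) and that of Tgfbr3 -1.25 (-1.99 to -0.43).

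**Figure D3:**
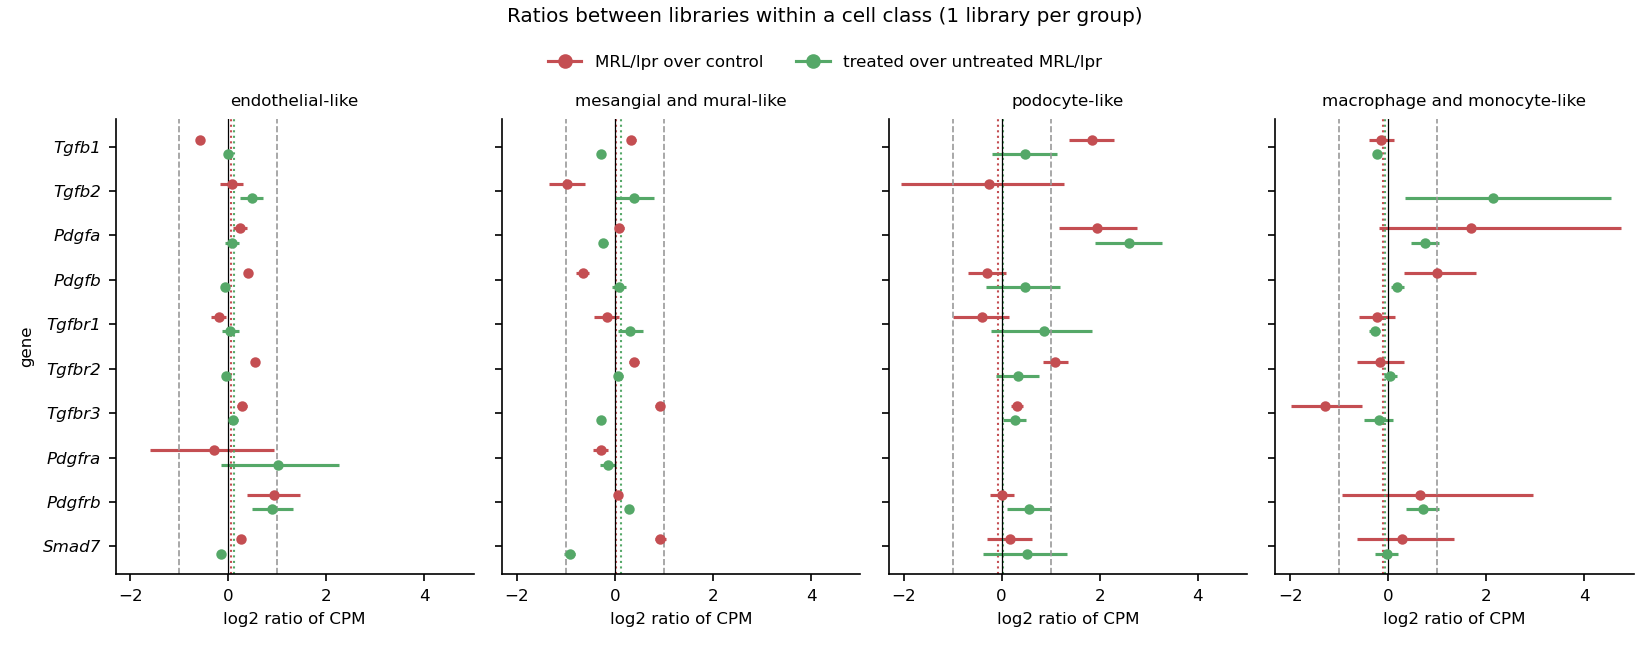
Log2 ratio of CPM between libraries (x axis) for each gene in 4 cell classes, red for MRL/lpr over control and green for treated over untreated MRL/lpr, with exact 95% counting intervals. Genes under 20 UMIs over both libraries are not drawn, dashed lines mark 2-fold and dotted lines the median of all genes. Smad7 in mesangial and mural-like cells is at 0.93 in red and -0.92 in green.

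The second comparison set the treated library against the untreated MRL/lpr library. It shares the MRL/lpr library with the first comparison, so an opposite sign in the 2 comparisons is not independent. In endothelial-like cells 1 of 10 members was at least 2-fold higher, where 6.28% of 14930 genes were, and 0 lower, where 4.37% were. In mesangial and mural-like cells 0 were higher and 0 lower of 10, where 5.31% and 5.14% of 14168 genes were. In podocyte-like cells 1 of 8 members compared was higher and 0 lower, where 4.48% and 4.14% of 10619 genes were. In macrophage and monocyte-like cells 1 of 9 compared was higher and 0 lower, where 2.91% and 5.47% of 13592 genes were. The median log2 ratio of all genes was 0.12, 0.12, 0.02 and -0.06. The 3 members past 2-fold had at most 41 UMIs in either library.

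In endothelial-like cells Tgfb1, Pdgfb and Tgfbr2 differed little between the 2 libraries over the whole class. Tgfb1 was at 131 CPM in the treated and 131 CPM in the untreated library, with a log2 ratio between -0.08 and 0.08, Pdgfb at -0.06 (95% interval -0.13 to 0.01) and Tgfbr2 at -0.04 (95% interval -0.10 to 0.02). Tgfb2 was the ligand that differed most, at 18.7 against 13.5 CPM and 0.48 (95% interval 0.25 to 0.71). Within the clusters led by Jchain and Stab1, by Calca and by Sele, Tgfb2 was higher in each, at 1.04 (0.35 to 1.79), 1.06 (0.73 to 1.37) and 1.58 (0.62 to 2.74). The cluster led by Calca had the highest Tgfb2 of the 3, at 16.3 CPM untreated and 33.8 CPM treated, and it held 2532 of 4135 untreated but 447 of 4843 treated cells. Treated endothelial-like cells lay mostly in the clusters led by Jchain and Stab1 (2317 cells) and by Sele (1844 cells), and the ratio of the whole class was below that of each of the 3 clusters. The 1 member past 2-fold, Pdgfra, had 20 and 10 UMIs, and its log2 ratio of 1.01 (95% interval -0.15 to 2.27) became -0.23 (-0.73 to 0.26) with classes taken from marker UMIs alone. Pdgfrb was at 6.86 against 3.69 CPM, near the free RNA estimate of 6.38 and 5.16 CPM.

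In mesangial and mural-like cells Smad7 was the member that differed most, at 80.4 CPM in the treated library against 153 CPM in the untreated library, a log2 ratio of -0.92 (95% interval -1.04 to -0.81). The control level was 80.3 CPM, but control and treated cells lay mostly in different clusters: the cluster led by Sfrp2 held 557 control and 18 treated cells, and those led by Col12a1 and by Cxcl9 held 12 and 9 control and 738 and 761 treated cells. In the cluster led by Ren1 and Tagln, which both shared, Smad7 was at 58.6 CPM (47.5 to 71.5) in the control, 148 CPM (136 to 162) in the MRL/lpr and 76.3 CPM (65.8 to 87.8) in the treated library. Within clusters the ratio was -0.96 (-1.21 to -0.72) in the one led by Ren1 and Tagln, -0.89 (-1.05 to -0.74) in the one led by Col12a1 and Tnfsf8, and -0.42 (-0.77 to -0.07) in the one led by Cxcl9. Pdgfrb was higher, at 325 against 266 CPM and 0.29 (95% interval 0.22 to 0.36), and was higher in the first 2 of these clusters, at 0.35 (0.21 to 0.49) and 0.25 (0.16 to 0.34), but level in the cluster led by Cxcl9, at 0.02 (-0.23 to 0.27). Tgfb1, Tgfbr3 and Pdgfa were lower by less than 0.3 on the log2 scale, at -0.28, -0.28 and -0.23. Tgfb2 was at 10.6 against 8.1 CPM. Its ratio was 0.87 (0.16 to 1.60), 0.28 (-0.30 to 0.87) and 0.60 (-0.83 to 2.35) in the clusters led by Ren1, Col12a1 and Cxcl9. Tgfbr1 was at 24.3 against 19.6 CPM, Tgfbr2 at 158 against 151 CPM, Pdgfb at 66.1 against 62.6 CPM and Pdgfra at 47.2 against 51.9 CPM. The cluster led by Cxcl9 held 761 treated and 128 untreated cells, so it weighs more in the treated class. Endothelial markers summed to 1709 CPM in the untreated and 1384 CPM in the treated mesangial and mural-like class. Macrophage markers were at 277 and 585 CPM, neutrophil markers at 51 and 240.4 CPM and B and plasma cell markers at 0.546 and 48.8 CPM, and free RNA was estimated at 11.8% and 17% of its UMIs. Their part in the Smad7 ratio was not tested.

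In T and NK cell-like cells Smad7 was also lower in the treated library, at 94 against 151 CPM and -0.68 (95% interval -0.98 to -0.39), after a ratio of 0.84 (95% interval 0.40 to 1.31) for MRL/lpr over control. By cluster the lower treated level was seen in the one led by Ccl5 and Cd3g, at -0.69 (-1.07 to -0.31). In the cluster led by Gm8369 and Gpr183, with 470 untreated and 71 treated cells, Smad7 was at -0.13 (-0.90 to 0.56), and in the one led by Gzma at -0.11 (-1.15 to 0.86). For MRL/lpr over control Smad7 was at 1.46 (0.73 to 2.28) in the first and -0.19 (-1.11 to 0.77) in the last. Endothelial-like cells had a ratio of -0.15 (95% interval -0.23 to -0.08). Smad7 in macrophage and monocyte-like cells was level, at -0.03 (95% interval -0.26 to 0.20).

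The treated podocyte-like class held only 151 cells. Pdgfa in it was at 35.7 CPM (95% interval 25.6 to 48.5) against 5.94 CPM (95% interval 4.16 to 8.23) in the untreated library, a log2 ratio of 2.59 (95% interval 1.91 to 3.28). The ratio was 1.40 with classes from marker UMIs alone and 3.62 with free RNA subtracted. The 41 UMIs lay in 32 cells, with at most 3 in 1 cell, so they were spread over many cells. Free RNA was estimated to give 3.9 CPM, and mesangial and mural markers summed to 288 CPM in this class against 130.3 CPM in the untreated one and 11008 CPM in the treated mesangial class, where Pdgfa was at 165 CPM. Endothelial markers in the podocyte-like class were at 281 against 160.5 CPM and macrophage markers at 200.5 against 82.7 CPM. Their part in the ratio was not tested. Within the podocyte cluster led by Clic3 and Cdkn1c the ratio was 3.17 (2.24 to 4.13). Tgfb2 in the treated podocyte-like class had 11 UMIs (9.59 CPM) against 5 UMIs (0.825 CPM) and was under the 20 UMIs needed for a comparison. Tgfbr3 was at 0.27 (95% interval 0.03 to 0.51) and Pdgfrb at 0.56 (95% interval 0.11 to 1.00).

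Macrophage and monocyte-like cells had lower Tgfb1 and Tgfbr1 in the treated library, at -0.22 (95% interval -0.30 to -0.15) and -0.28 (95% interval -0.39 to -0.17), and higher Pdgfa, at 23.2 against 13.8 CPM and 0.74 (95% interval 0.46 to 1.03). The Tgfbr1 ratio was not shared by all clusters: its interval lay below 0 in the cluster led by C1qc, at -0.70 (-0.89 to -0.51), and held 0 in those led by Slpi, Clec4e, Lgals3 and Ly6c2, at 0.09 (-0.20 to 0.39), -0.25 (-0.50 to 0.01), -0.07 (-0.41 to 0.29) and 0.31 (-0.04 to 0.67). Tgfb1 in the same order was at -0.31 (-0.44 to -0.18), -0.16 (-0.35 to 0.02), -0.00 (-0.17 to 0.16), -0.28 (-0.51 to -0.05) and -0.35 (-0.53 to -0.17). Tgfb2 passed 2-fold on 17 and 3 UMIs, at 2.13 (95% interval 0.34 to 4.54), a level of 1.22 CPM where empty droplets were at 4.8 CPM. Pdgfrb was at 16.4 against 10.1 CPM, where mesangial and mural markers summed to 215 and 165 CPM, and their part in the Pdgfa and Pdgfrb ratios was not tested.

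The 5 macrophage and monocyte clusters held the members at different levels. Pdgfa was highest in 2 of them. The cluster led by the complement genes C1qc, C1qb and C1qa, with Cd5l, held it at 30.2 CPM (24.6 to 36.7) in the MRL/lpr library and 57.5 CPM (49.2 to 66.8) in the treated library, and the cluster led by Lgals3, with Trem2 and Gpnmb, at 27.5 CPM (16.3 to 43.4) and 38 CPM (31.3 to 45.7). In the clusters led by Slpi, by Clec4e and by Ly6c2 and Ccr2 it was at 6.07, 3.59 and 3.95 CPM in the MRL/lpr library and 2.78, 4.86 and 8.46 CPM in the treated library. Pdgfb was spread over all 5, from 42.8 to 91.7 CPM in the MRL/lpr library and from 50.8 to 91.3 CPM in the treated library. In the cluster led by Lgals3 it was at 42.8 CPM (28.4 to 61.8) in the untreated and 84.2 CPM (74 to 95.3) in the treated library, a log2 ratio of 0.98 (0.41 to 1.60). Tgfbr1 was highest in the C1q-led cluster of the MRL/lpr library at 201 CPM (186 to 217), and stood at 124 CPM (111 to 137) there in the treated library, while Pdgfa went the other way with a ratio of 0.93 (0.57 to 1.30). The members were left out of the clustering, so their own counts did not form the clusters. The C1q-led and Lgals3-led clusters held 495 and 126 untreated and 460 and 769 treated cells.

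**Figure D4:**
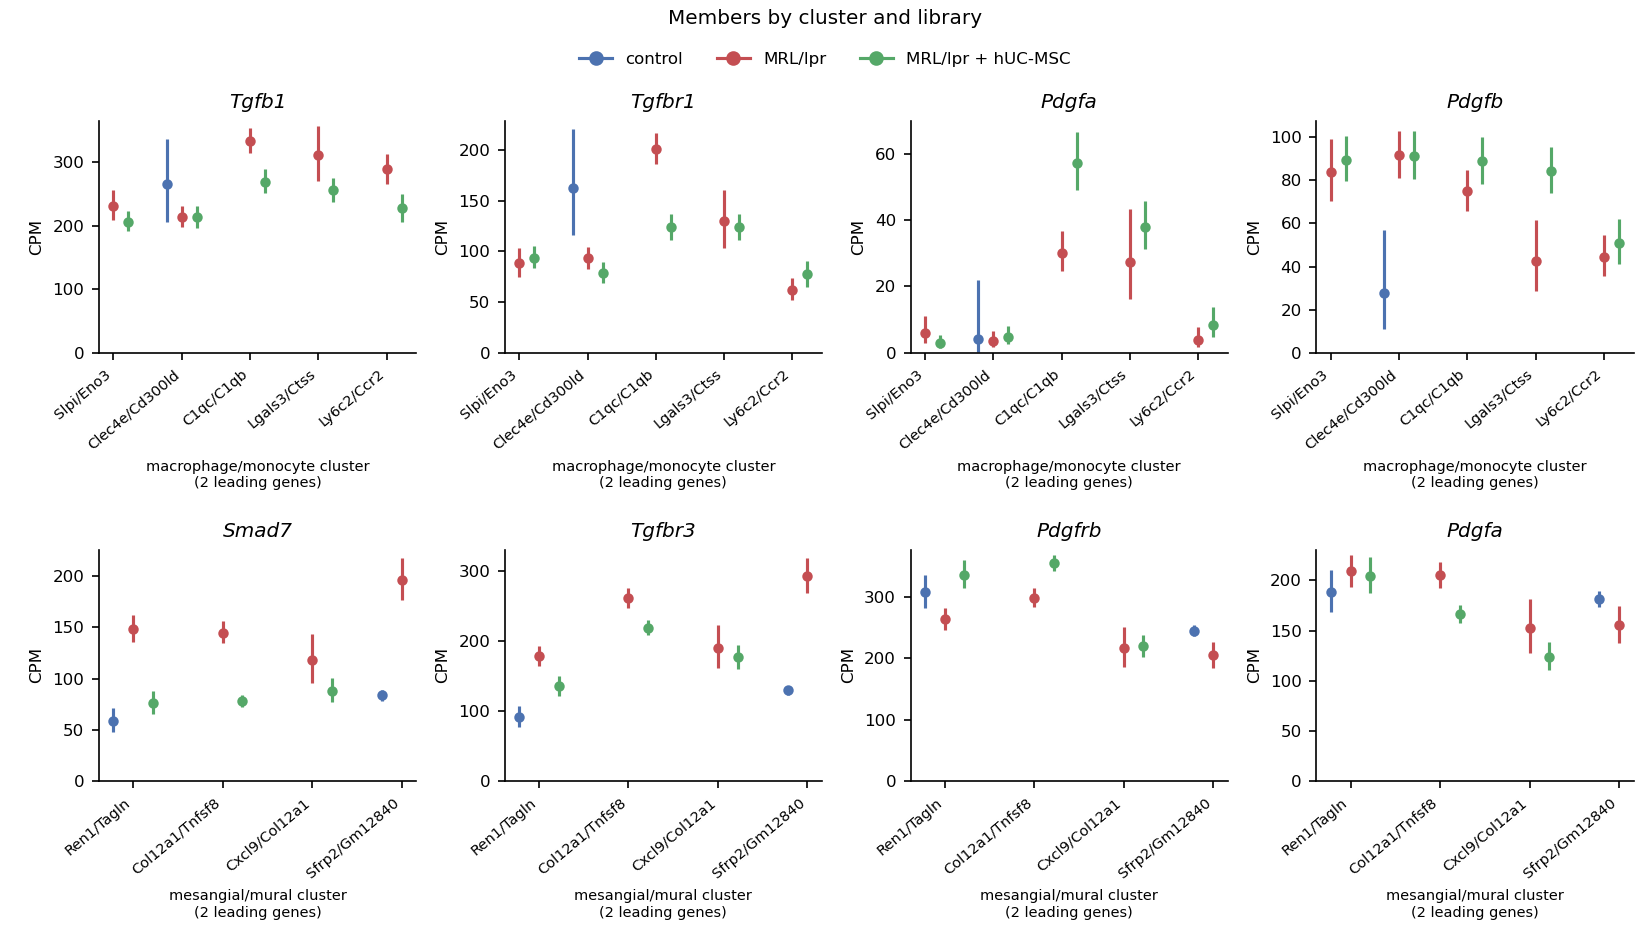
CPM (y axis) of members in the macrophage and monocyte clusters (top) and in the mesangial and mural clusters (bottom), named by 2 leading genes, with exact 95% Poisson intervals; a library is shown where it has at least 50 cells of the cluster. Pdgfa stands out in the C1qc/C1qb and Lgals3/Ctss clusters, and Smad7 of the MRL/lpr library lies above the other libraries in each mesangial and mural cluster.

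Around the members, the 16 genes of a TGF-beta response list were followed in the same classes. The share of all genes compared that were at least 2-fold higher and lower in that class stands in brackets beside each count, and no count was tested against it. In mesangial and mural-like cells 8 of 14 were at least 2-fold higher and 0 lower (all genes 12.9% and 5.39%) in MRL/lpr over control, with a median log2 ratio of 1.15 against 0.03 for all genes. Endothelial markers in the class were at 1709 against 845 CPM and macrophage markers at 277 against 14.6 CPM, and their part in the count was not tested. Acta2, Tagln, Col1a1 and Col3a1 of the list are also markers of the class, and the cluster led by Ren1 and Tagln made up 434 of 1012 control and 1088 of 1838 MRL/lpr cells. The contractile genes Acta2 and Tagln were at 295 against 105 CPM and 182 against 80.6 CPM, and the collagen gene Col3a1 was at 44.6 against 2.96 CPM. In treated over untreated MRL/lpr 4 of 15 were at least 2-fold higher and 2 lower (all genes 5.31% and 5.14%) of the same list. The higher ones were matrix genes: Fn1 at 22.8 against 5.01 CPM, Col1a1 at 4.26 against 0.546 CPM, Col1a2 at 99 against 41.3 CPM and Col3a1 at 194 against 44.6 CPM. The lower ones were the transcription regulators Bhlhe40, at 49.9 against 143 CPM, and Id1, at 34.9 against 72.8 CPM. The other 9 genes compared were within 2-fold, among them Col4a1 at 1569 against 1269 CPM and Id3 at 851 against 1397 CPM. Macrophage and neutrophil markers in the class also differed between these 2 libraries, as given with Smad7 above. The clusters led by Col12a1 and by Cxcl9 held 738 and 761 of 2281 treated cells and 507 and 128 of 1838 untreated cells. The part of these markers and of this make-up in the ratios was not tested. Pmepa1, another inhibitor of the pathway, was at least 2-fold higher in the treated library, at 111 against 53.6 CPM. It was at least 2-fold higher in MRL/lpr over control as well.

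In endothelial-like cells 4 of 13 were at least 2-fold higher and 0 lower (all genes 10.9% and 5.70%) on the response list in MRL/lpr over control (median 0.59). Bhlhe40 was at 148 against 43.6 CPM and Timp1, an inhibitor of matrix proteases, at 19 against 3.81 CPM. Mesangial and mural markers in the class were at 726 against 345 CPM and macrophage markers at 493 against 266 CPM. In treated over untreated 6 of 15 were at least 2-fold higher and 0 lower (all genes 6.28% and 4.37%). These included Acta2 and Tagln, smooth muscle genes, at 53.4 against 22.7 CPM and 12.8 against 2.09 CPM, and the mesangial and mural markers, which hold both genes, summed to 788 against 726 CPM in the class. Macrophage markers were at 706 against 493 CPM and B and plasma cell markers at 66.9 against 0.947 CPM, and the part of these markers' cells in the endothelial counts was not tested. In podocyte-like cells 7 of 11 were at least 2-fold higher and 0 lower (all genes 8.97% and 6.62%) in MRL/lpr over control. Ccn2, which encodes a matricellular protein, was at 1596 against 698 CPM, and in treated over untreated 5 of 11 were at least 2-fold higher and 0 lower (all genes 4.48% and 4.14%). Markers of other cells in the podocyte-like class stood, in the order control, MRL/lpr and treated, at 67.3, 160.5 and 281 CPM for endothelial, 68.1, 130.3 and 288 CPM for mesangial and mural and 5.03, 82.7 and 200.5 CPM for macrophage markers. Their part in these counts was not tested. In macrophage and monocyte-like cells 2 of 13 were at least 2-fold higher and 0 lower (all genes 2.91% and 5.47%) in treated over untreated.

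Of the genes that hold or activate latent TGF-beta, a list of 13 with Tgfb1 and Tgfb2 among them, several were higher in the resident classes of the MRL/lpr library and none was at least 2-fold lower in endothelial-like or mesangial and mural-like cells. Among mesangial and mural-like cells 6 of 12 were at least 2-fold higher and 0 lower (all genes 12.9% and 5.39%), with a median of 1.17, and in endothelial-like cells 5 of 12 were at least 2-fold higher and 0 lower (all genes 10.9% and 5.70%), with a median of 0.54. Lrrc32, which tethers latent TGF-beta to the cell surface, was at 48 against 12.7 CPM in mesangial and mural-like cells and 109 against 52 CPM in endothelial-like cells. Thbs1, a secreted activator, was at 269 against 77.5 CPM and 5.23 against 0.838 CPM. In the mesangial and mural-like class endothelial markers were at 1709 against 845 CPM and macrophage markers at 277 against 14.6 CPM. In the endothelial-like class mesangial and mural markers were at 726 against 345 CPM and macrophage markers at 493 against 266 CPM. The part of these markers' cells in the latency-list values of both classes, Thbs1 included, was not tested. In macrophage and monocyte-like cells 0 of 10 were at least 2-fold higher and 6 lower (all genes 13.1% and 15.0%), Thbs1 among them at 157 against 519 CPM, and in podocyte-like cells 3 of 10 were at least 2-fold higher and 1 lower (all genes 8.97% and 6.62%). The macrophage class held 108 control cells, and in this class endothelial markers were at 441 CPM for MRL/lpr against 894 CPM for control, erythroid markers at 1652 against 14345 CPM and platelet markers at 60.8 against 6.47 CPM. Their part in the macrophage count was not tested. In the podocyte-like class endothelial markers were at 160.5 against 67.3 CPM and mesangial and mural markers at 130.3 against 68.1 CPM. Macrophage markers there were at 82.7 against 5.03 CPM, and the part of all these markers in the podocyte count was not tested. In treated over untreated the counts were 2 higher and 1 lower of 13 in endothelial-like cells (all genes 6.28% and 4.37%), 1 and 1 of 12 in mesangial and mural-like cells (all genes 5.31% and 5.14%), 0 and 0 of 6 in podocyte-like cells (all genes 4.48% and 4.14%), and 2 and 1 of 12 in macrophage and monocyte-like cells (all genes 2.91% and 5.47%).

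The list of 7 receptor genes of the wider TGF-beta family is not limited to receptors of TGF-beta itself. It adds the co-receptor Eng, the type 1 receptors Acvrl1 and Acvr1 and the type 2 receptor Bmpr2 to Tgfbr1, Tgfbr2 and Tgfbr3. For MRL/lpr over control it had 0 higher and 0 lower of 7 in endothelial-like cells (median 0.45, all genes 10.9% and 5.70%), 0 higher and 0 lower of 7 in mesangial and mural-like cells (median 0.39, all genes 12.9% and 5.39%), 3 higher and 0 lower of 7 in podocyte-like cells (median 0.31, all genes 8.97% and 6.62%) and 1 higher and 1 lower of 7 in macrophage and monocyte-like cells (median -0.17, all genes 13.1% and 15.0%). The 3 higher in podocyte-like cells were Tgfbr2, Eng and Acvrl1, of which Eng and Acvrl1 are known as endothelial genes. For treated over untreated it had 0 higher and 0 lower of 7 in endothelial-like cells (median 0.10, all genes 6.28% and 4.37%), 0 higher and 0 lower of 7 in mesangial and mural-like cells (median 0.13, all genes 5.31% and 5.14%), 1 higher and 0 lower of 7 in podocyte-like cells (median 0.34, all genes 4.48% and 4.14%) and 0 higher and 0 lower of 7 in macrophage and monocyte-like cells (median 0.04, all genes 2.91% and 5.47%). The 1 higher in podocyte-like cells was Acvrl1. Endothelial markers in the podocyte-like class were at 67.3, 160.5 and 281 CPM in the control, MRL/lpr and treated libraries. Their part in the podocyte counts was not tested.

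The list of 14 SMADs and their regulators had 2 higher and 0 lower of 14 in endothelial-like cells (median 0.46, all genes 10.9% and 5.70%), 3 higher and 0 lower of 13 in mesangial and mural-like cells (median 0.43, all genes 12.9% and 5.39%), 0 higher and 0 lower of 13 in podocyte-like cells (median 0.17, all genes 8.97% and 6.62%) and 0 higher and 4 lower of 13 in macrophage and monocyte-like cells (median -0.66, all genes 13.1% and 15.0%) for MRL/lpr over control, and 1 higher and 0 lower of 14 in endothelial-like cells (median 0.06, all genes 6.28% and 4.37%), 1 higher and 0 lower of 14 in mesangial and mural-like cells (median 0.09, all genes 5.31% and 5.14%), 0 higher and 0 lower of 13 in podocyte-like cells (median 0.02, all genes 4.48% and 4.14%) and 0 higher and 0 lower of 13 in macrophage and monocyte-like cells (median 0.01, all genes 2.91% and 5.47%) for treated over untreated. Several of these shares are near those of all genes, and nothing is read from the counts. Smad6, the other inhibitory SMAD, was at 70.1 against 22.3 CPM in mesangial and mural-like cells and 364 against 191 CPM in endothelial-like cells for MRL/lpr over control. Endothelial markers in the mesangial and mural-like class were at 845 and 1709 CPM in the control and MRL/lpr libraries, and the part of endothelial RNA in its Smad6 values was not tested. Smad6 was among the leading genes of the endothelial cluster led by Jchain and Stab1. That cluster held 99 of 4787 control and 1074 of 4135 MRL/lpr endothelial-like cells, and the part of this make-up in the endothelial Smad6 values was not tested.

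The PDGF list of 14 genes had 1 higher and 0 lower of 14 in endothelial-like cells (median 0.13, all genes 10.9% and 5.70%), 0 higher and 1 lower of 14 in mesangial and mural-like cells (median -0.10, all genes 12.9% and 5.39%), 2 higher and 1 lower of 12 in podocyte-like cells (median -0.14, all genes 8.97% and 6.62%) and 4 higher and 1 lower of 13 in macrophage and monocyte-like cells (median 0.65, all genes 13.1% and 15.0%) for MRL/lpr over control, and 2 higher and 1 lower of 14 in endothelial-like cells (median 0.03, all genes 6.28% and 4.37%), 0 higher and 2 lower of 14 in mesangial and mural-like cells (median 0.20, all genes 5.31% and 5.14%), 3 higher and 0 lower of 12 in podocyte-like cells (median 0.52, all genes 4.48% and 4.14%) and 0 higher and 0 lower of 13 in macrophage and monocyte-like cells (median 0.28, all genes 2.91% and 5.47%) for treated over untreated, and nothing is read from these counts either. The other PDGF ligand genes were lower in mesangial and mural-like cells of the MRL/lpr library, Pdgfc at 30.2 against 68.6 CPM and Pdgfd at 102 against 198 CPM. Plat, a protease that activates the Pdgfc product, was at 484 against 259 CPM and, for treated over untreated, at 225 against 484 CPM. Endothelial markers in the mesangial and mural-like class were at 845, 1709 and 1384 CPM in the control, MRL/lpr and treated libraries. Their part in the Plat values was not tested.

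Over 27 sums of a class in a library, among 12399 genes with at least 500 UMIs, the genes whose log2(CPM + 1) followed each member most closely were named as a description, since sums of one library share its depth and free RNA. For Tgfb1 these were Pip4k2a (r = 0.95), Rftn1 (r = 0.95) and Arhgap26 (r = 0.94), and for Tgfb2 Ecm2 (r = 0.93), Vsig2 (r = 0.92) and Runx1t1 (r = 0.89). Pdgfa was followed by Csrp1 (r = 0.89), Itga1 (r = 0.89) and Afap1l2 (r = 0.89), and Pdgfb by Cmtm3 (r = 0.89), Sh2b3 (r = 0.89) and Plxnd1 (r = 0.87). Among the TGF-beta receptors, Tgfbr1 was followed by Pacc1 (r = 0.93), Nfe2l2 (r = 0.92) and Ddhd1 (r = 0.91), Tgfbr2 by Ifi47 (r = 0.95), Cables2 (r = 0.95) and Ppp3ca (r = 0.94), and Tgfbr3 by Fancc (r = 0.91), Fez2 (r = 0.90) and Lats2 (r = 0.90). Pdgfra was followed by Galnt17 (r = 0.96), Gucy1a2 (r = 0.96) and Mrvi1 (r = 0.96), and Pdgfrb by Hoxa11os (r = 0.90), Gnao1 (r = 0.90) and 2310022B05Rik (r = 0.90). For Smad7 the genes were B3gnt2 (r = 0.96), Arl15 (r = 0.93) and Mylip (r = 0.90).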

How the data were processed

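Single-cell libraries were prepared with a droplet kit that counts polyA RNA from the 3' end, and per the labels' processing notes the authors used STAR, Cell Ranger and mm10 (the matrix header names Cell Ranger 4). The deposited counts are whole UMI counts per gene and barcode for all barcodes, not normalized, 1 matrix per group, with total counts of 94903163, 103319588 and 90812138 UMIs in the control, MRL/lpr and treated library. Barcodes with at least 1000 UMIs and at most 10% mitochondrial UMIs were kept (11018, 14109 and 16586). The barcodes with the highest Scrublet scores (scanpy 1.11.5), 971, 1593 and 2201 in number, were removed as doublets. These numbers were fixed beforehand at 0.8% per 1000 barcodes of a library, so they are not a measured doublet rate. The remaining cells were clustered jointly (2000 variable genes, 10 components, 15 neighbours, Leiden resolution 1), without the members, their pathway lists, mitochondrial and ribosomal genes, and clusters were named from marker lists. The members, lists and markers were chosen with earlier results of these data known, and the merging of mesangial, stromal, smooth muscle and renin markers into 1 class, of T and NK markers into 1, and the naming limits were set after clusters were seen. 1051, 191 and 1801 cells stayed unnamed, and a class had to hold 50 cells in both libraries to be compared.

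UMIs were summed per class and library. Intervals are exact Poisson (levels), exact conditional binomial (ratios) and exact Clopper-Pearson (shares) at 95%, and cover counting error only. Of these, the ratio interval alone was tried on simulated data. Those data were Poisson counts, so they say nothing about spread between cells or libraries. Cells are not replicates, and with 1 library per group no p-value was computed. Free RNA in a class was estimated as the median, over other classes' markers, of the class level divided by the empty-droplet level. Named genes are the members, pathway lists, markers and, for each member with at least 200 UMIs, the 3 most alike genes. Gene positions are from GENCODE M21 (GRCm38), matched by identifier. The labels give about 8000 captured cells. They also state limits of 200 to 3000 genes and a ribosomal limit. 1679, 1479 and 1239 of the cells had more than 3000 genes, the gene limit is an alternative, and the ribosomal limit was not applied. The values of 1 gene of the response list are not reported here. Other alternatives were the cell threshold, clustering resolution, doublets, free RNA, marker-based classes, median centring and thinning.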

Additional observations from a re-analysis of the deposited data

Results flagged for a closer look

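Tgfbr3 was at least 2-fold apart in opposite directions in different classes of the same comparison, MRL/lpr over control. Its log2 ratio was 2.38 (1.25 to 3.84, 342 and 6 UMIs) in proximal tubule-like cells, 1.53 (0.95 to 2.15, 142 and 30 UMIs) in distal nephron-like cells and 1.24 (0.33 to 2.29, 95 and 11 UMIs) in T and NK cell-like cells, and -1.29 (-1.98 to -0.53, 180 and 19 UMIs) in macrophage and monocyte-like cells. The last value is the one in the other direction, and it became 0.80 (-1.08 to 3.87) with 200 to 3000 genes per cell. Tgfbr3 was not alone: 5 of 10 members compared were at least 2-fold higher in proximal tubule-like cells. In distal nephron-like cells 3 of 8 were higher, and in T and NK cell-like cells 3 of 7. Pdgfb and Pdgfrb were among them in each class. Of all genes compared, 21.9%, 18.1% and 12.5% were at least 2-fold higher in these classes, and 15.0% were lower in macrophage and monocyte-like cells. In the MRL/lpr library Tgfbr3 did not exceed the empty-droplet level in any of these classes. The difference between the classes was not tested, since each class has 1 library per group. Free RNA was estimated at 6.98% and 50.5% of UMIs in proximal tubule-like cells, 3.04% and 21.8% in distal nephron-like cells and 6.5% and 17.1% in T and NK cell-like cells of the control and MRL/lpr libraries, and its part in these ratios was not tested.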

How the results depend on the processing

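No paired analysis was possible because each group has 1 library. For the same reason no replicate could be left out, and library, strain and disease cannot be told apart. Of the member ratios in the 4 main classes, the direction was kept in 61 of 70 (200 to 3000 genes per cell), 69 of 73 (Leiden resolution 2.0), 68 of 74 (centred on the median of all genes), 64 of 74 (classes from marker UMIs alone), 63 of 68 (free RNA subtracted), 68 of 74 (no doublets removed), 62 of 64 (order-of-magnitude cell threshold). The count of members at least 2-fold apart, over the 4 classes and both directions, was 6 for MRL/lpr over control and 3 for treated over untreated MRL/lpr. Of all genes compared in a class, 8.97% to 13.1% were higher and 5.39% to 15.0% lower in the first comparison. In the second, 2.91% to 6.28% were higher and 4.14% to 5.47% lower. The count of the first comparison became 3 with no doublets removed. That of the second became 1 with 200 to 3000 genes per cell and 5 with classes from marker UMIs alone. Of the ratios past 2-fold that could still be compared, the call was kept in 5 of 7 (200 to 3000 genes per cell), 6 of 9 (no doublets removed) and 7 of 9 (classes from marker UMIs alone). It was kept in 6 of 7 (free RNA subtracted), 7 of 8 (Leiden resolution 2.0), 8 of 9 (centred on the median of all genes) and 5 of 5 (order-of-magnitude cell threshold). The mesangial Smad7 log2 ratios of 0.93 and -0.92 became 1.27 and -0.78 with 200 to 3000 genes per cell, and the second was -1.05 after centring on the median of all genes. Without the cluster led by Ren1, an alternative chosen after seeing the data, they were 0.89 and -0.92. That alternative changes the mesangial and mural-like class only, and with it the count of members for MRL/lpr over control was 8 in place of 6. The treated podocyte Pdgfa ratio of 2.59 was 3.35 with 200 to 3000 genes per cell, 3.62 with free RNA subtracted and 1.40 with classes from marker UMIs alone. A pair of ratios past 2-fold changed sign: Tgfbr3 in macrophage and monocyte-like cells, MRL/lpr over control, was 0.80 with 200 to 3000 genes per cell, and Pdgfra in endothelial-like cells, treated over untreated, was -0.23 with classes from marker UMIs alone. The cause was not tested. The class with the highest level stayed the same for 27 to 30 of 30 pairs of a member and a library over the 6 alternatives that change levels, where the order-of-magnitude threshold left the control macrophage class under 50 cells and unranked. Thinning to 1000 UMIs moved shares of cells with a UMI beyond their interval in 115 of 120 values. Depth limits Tgfb2, Pdgfra outside mesangial cells, and every value of the control macrophage and treated podocyte-like classes.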

Other observations

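Neutrophil-like cells, compared with no control because that library held 24 of them, had Tgfb1 at 139.9 and 135 CPM and Tgfbr1 at 62.8 and 45.7 CPM in the MRL/lpr and treated libraries, from 289 and 194 cells. Pdgfa in them was at 3.3 and 7.62 CPM. The 110 dendritic-like cells of the treated library held Tgfb1 at 106 CPM (95% interval 82.7 to 134) and 1 UMI of Tgfbr3. Distal nephron-like cells, of the loop, distal tubule and collecting duct, held Tgfbr1 at 78.7, 88.3 and 96.8 CPM and Smad7 at 103, 114 and 85.8 CPM, while mesangial and mural-like cells had Tgfbr1 at 22, 19.6 and 24.3 CPM. Pdgfrb had 0 UMIs in the 108 distal nephron-like and the 60 proximal tubule-like cells of the control library, with upper limits of 2.42 and 6.72 CPM. In the MRL/lpr and treated libraries it was at 25.2 and 23.6 CPM in distal nephron-like cells. Proximal tubule-like cells were at 38.6 and 66.8 CPM there. None of these 4 values exceeded the empty-droplet level. Free RNA was estimated at 21.8% and 34.0% of UMIs in the distal and 50.5% and 38.7% in the proximal class, and its part was not tested.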
